A study of Macaca mulatta with 30 samples.

Results

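The genes described here are the ATP-binding cassette (ABC) transporters of families A to G, the organic anion transporting polypeptides (SLCO), the SLC10 bile acid carrier family and the SLC22 organic ion carrier family. They were taken from a table of 21292 gene names in which 86 rows carried such a name, and the members are the 63 rows whose mean reached 1 TPM in 1 tissue or more. TPM is a transcript's share of all transcripts in a library after correction for transcript length, scaled so that each library sums to 1000000, so levels of different genes can be set side by side. The members comprise 38 ABC, 8 SLCO, 5 SLC10 and 12 SLC22 genes. RNA was sequenced from liver, pancreas, parotid, submandibular and sublingual glands of 6 rhesus macaques (Macaca mulatta), with 1 library per tissue and animal and 30 libraries in all. Animals 1 to 4 were female and animals 5 and 6 male, the tissue had been flash frozen, and no treatment or genetic change is named for any animal. The tissues of 1 animal form a set, so each tissue had 6 biological replicates.

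Hepatocytes take bile acids, bilirubin and drugs from the blood through SLC10, SLCO and SLC22 carriers on the sinusoidal side. They excrete them into bile through ABC pumps on the canalicular side, which use ATP to move their cargo against a gradient. Other members of the ABC superfamily move lipids, serve peroxisomes, mitochondria and lysosomes, regulate a potassium channel, or, in the E and F families, have no membrane part and act on ribosomes. The acinar cells of pancreas and salivary glands secrete enzymes and fluid into ducts, and pancreas also holds the hormone-secreting islets.

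Of the members, 41 had their highest mean in liver, 11 in pancreas, 8 in sublingual gland, 2 in parotid (ABCC1 and SLC22A8) and 1 in submandibular gland (SLC22A3). The summed TPM of the members ran from 1236 to 2292 in liver, 180.2 to 408 in pancreas, 111 to 299.7 in sublingual gland, 93.8 to 177 in parotid and 88.6 to 472 in submandibular gland. A mean of at least 10 TPM was reached by 20 members in liver, 8 in pancreas, 7 in sublingual gland, 4 in submandibular gland and 3 in parotid. These counts are on the deposited scale, on which the bulk of genes stood higher in liver too, as given below. The same counts over all genes were not made. Closest to the limit for membership were SLCO5A1 at a highest tissue mean of 1.01 TPM and SLC22A20P at 1.04 TPM on the inside, and ABCB9 at 0.922 TPM and ABCA4 at 0.522 TPM on the outside. ABCA12, a skin lipid transporter, reached a mean of at most 0.144 TPM and is no member. Differences were tested for the 55 members that reached 1 TPM in 6 or more libraries. The 8 others were ABCA10, ABCC12, ABCG4, SLC10A4, SLC22A15, SLC22A20P, SLC22A8 and SLCO5A1.

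Libraries that stood apart bear on what follows. Pancreas of animal 4 had a median of 339 TPM over 8 acinar enzyme markers, where the other 5 had 13025 to 35993 TPM, a median of 833 TPM over 6 adipocyte markers, an endothelial marker median of 64.1 TPM that no other library reached, and a sum of 13436 TPM over the blood markers. In the submandibular library of animal 4 the median of 5 salivary markers was 219 TPM against 30517 to 48261 TPM in the others, with adipocyte markers at 687 TPM, endothelial markers at 39.0 TPM, macrophage markers at 36.6 TPM and a blood marker sum of 10380.1 TPM. Skeletal muscle markers reached a median of 9681 TPM in parotid of animal 6, 2482 TPM in the sublingual library of animal 5, 878 TPM in that of animal 1, 533 TPM in the parotid library of animal 1 and at most 58.8 TPM in every other library. Of the 63 members, 54 had their highest submandibular value in animal 4, and 38 their highest pancreas value there. The bulk of genes stood high in these libraries too, as the trimmed-mean factor, a library's level for that bulk, shows. It was 2.89 in submandibular gland of animal 4 and 0.462 to 0.667 in the other 5. In pancreas it was 2.24 in animal 4 and 0.741 to 1.54 in the other 5. The share of all genes with their highest value there was not counted. Sublingual libraries of animals 1 and 4 were high in genes of squamous epithelium, and are described with the members they touch. The mucous markers had a median of 2.70 to 247 TPM in the sublingual libraries, the middle of which (15.0 TPM) was the highest of the 5 tissues, before submandibular gland (6.02 TPM). Bulk tissue was measured, so a change in the number of cells of a type cannot be told apart from a change in RNA per cell.

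**Figure D1:**
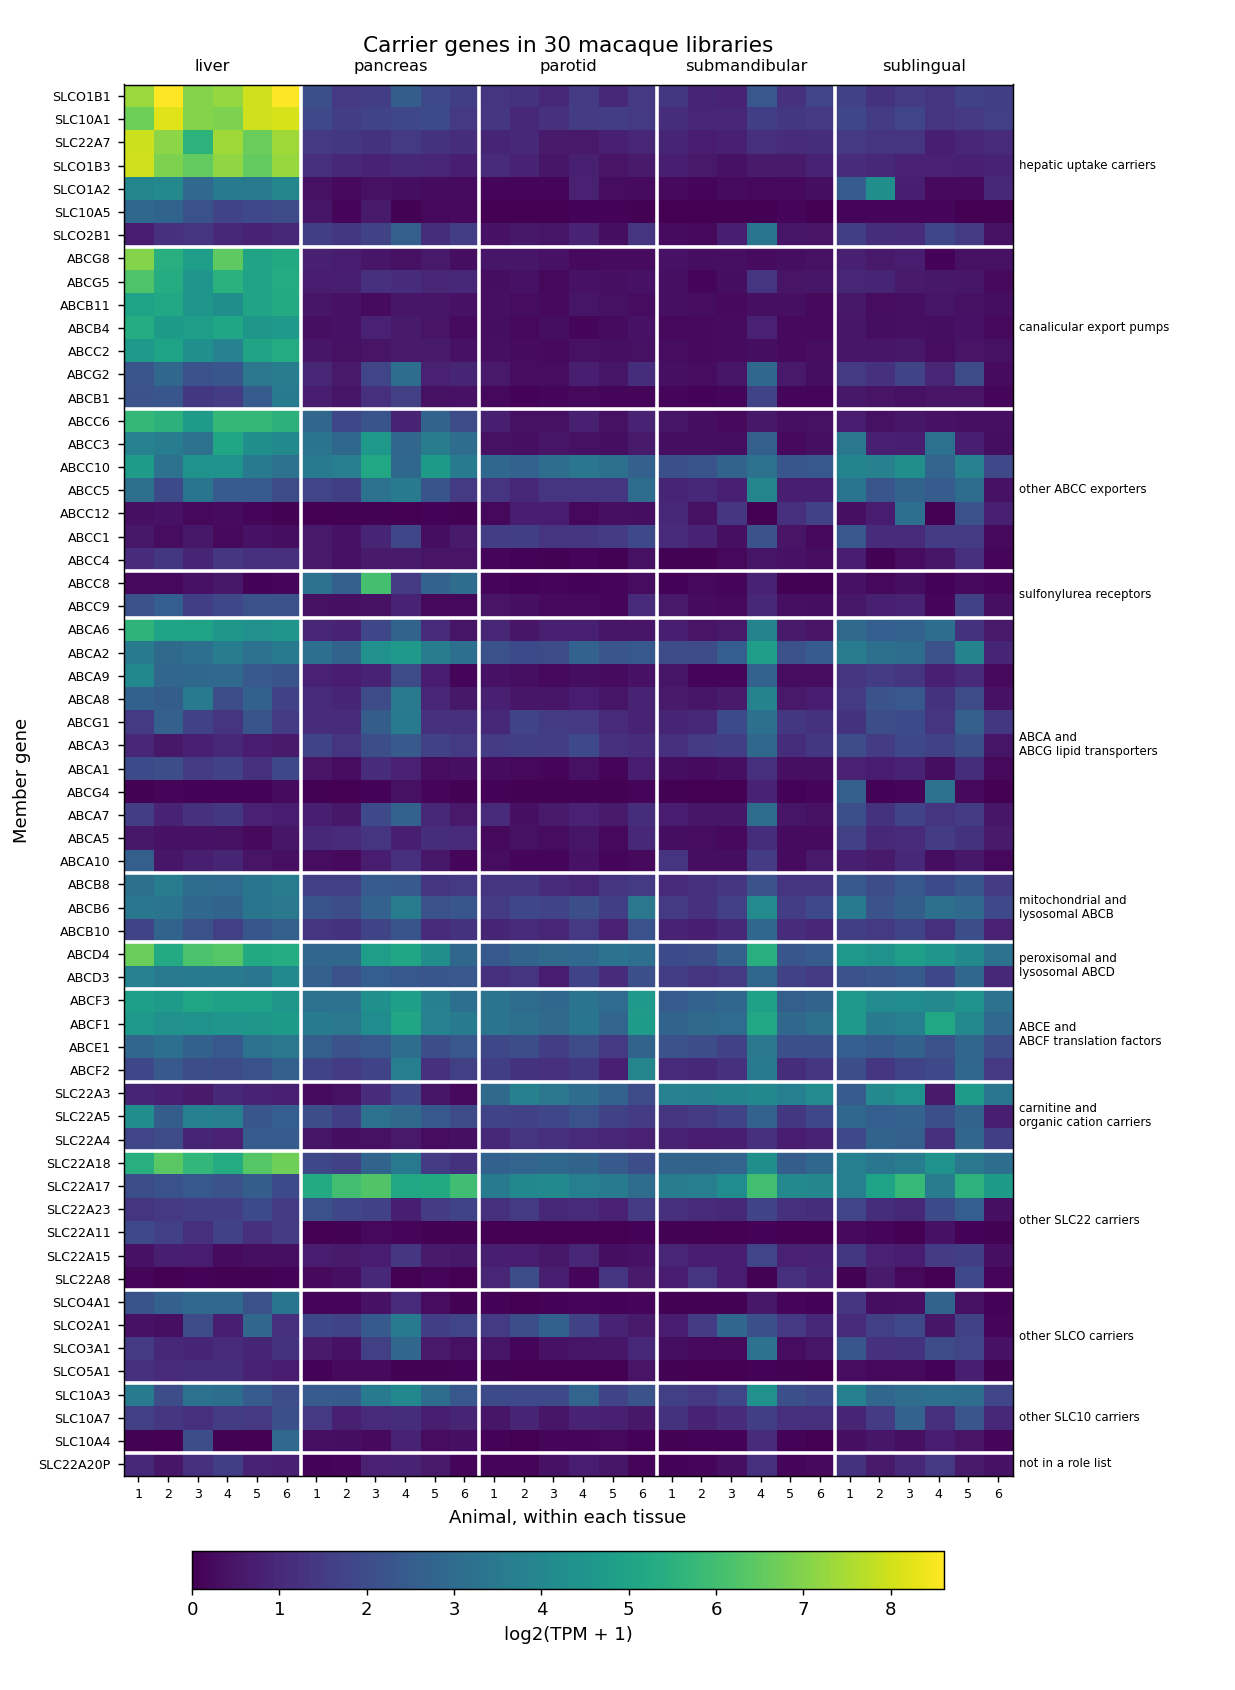
Level of 60 members in the 30 libraries, as log2(TPM + 1) by colour, with members grouped by role in rows and the 6 animals of each tissue in columns. Uptake carriers and canalicular pumps other than SLCO2B1 are brighter in the liver columns than in nearly all others, and the submandibular column of animal 4 is brighter than the other 5 for most of them.

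The hepatic uptake carriers showed the largest differences between tissues. SLCO1B1, which takes up bile acids, bilirubin and statins, had 129 to 390.4 TPM (median 206) in liver and at most 4.79 TPM elsewhere. Its close relative SLCO1B3 had 92.2 to 251 TPM (median 132) in liver and at most 1.28 TPM in any other library. SLC10A1 (NTCP), the sodium-dependent bile acid carrier, ran from 103 to 294 TPM (median 189) in liver and reached 2.84 TPM at most outside it. SLC22A7 (OAT2, an organic anion carrier) had 45.9 to 249 TPM (median 151) in liver and at most 1.73 TPM elsewhere. In none of these 4 did a library of another tissue come near any liver, and each was higher in liver in 6 of 6 animals in all 4 comparisons. On the log2(TPM + 1) scale, where 1 unit is about a doubling and the change of low genes is understated, SLCO1B3 was higher by 6.13 ± 0.20 (adjusted p = 9.83e-19) against pancreas, where the error is the standard error and the test is limma with Benjamini-Hochberg adjustment over all 13550 genes tested. Against parotid, submandibular and sublingual glands the difference was 6.37, 6.44 and 6.20. Against pancreas it was 5.94 ± 0.29 (adjusted p = 1.36e-15) for SLCO1B1, 5.74 ± 0.26 (adjusted p = 3.65e-16) for SLC10A1 and 5.69 ± 0.26 (adjusted p = 4.67e-16) for SLC22A7.

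The other uptake carriers were lower and less uniform. SLCO1A2 (OATP1A2, a carrier of bile salts and amphipathic drugs) had 6.61 to 15.7 TPM (median 12.6) in liver and at most 0.730 TPM in pancreas, parotid and submandibular gland. In sublingual gland it was 4.63, 18.5, 0.634, 0.157, 0.172 and 0.992 TPM in animals 1 to 6, so the library of animal 2 exceeded every liver while 4 of the 6 were under 1 TPM. It was higher in liver than in sublingual gland by 2.16 ± 0.40 (adjusted p = 1.03e-04), in 5 of 6 animals. SLC10A5, a family member whose cargo is not settled, had 2.43 to 6.60 TPM (median 3.24) in liver and at most 0.550 TPM elsewhere. SLCO2B1 (OATP2B1, found in liver, gut and endothelium) was the exception. It had 0.625 to 1.497 TPM in liver, 1.18 to 5.03 TPM in pancreas, 0.249 to 1.48 TPM in parotid, 0.310 to 2.60 TPM in sublingual gland and, in submandibular gland, 9.17 TPM in animal 4 and at most 0.634 TPM in the others. Liver minus pancreas was -0.65 ± 0.32 (adjusted p = 0.132), with liver lower in 6 of 6 animals. That difference passed the threshold with trimmed-mean scaling, which sets the bulk of genes level between libraries, at -0.80 (adjusted p = 0.00220), and without the pancreas and submandibular libraries of animal 4 and the parotid library of animal 6, at -0.52 (adjusted p = 0.0275). Without those 3 libraries SLCO2B1 was called higher in liver than in parotid, by 0.53 (adjusted p = 0.0168), and than in submandibular gland, by 0.54 (adjusted p = 0.0163), but with trimmed-mean scaling both differences turned to -0.12 and -0.13. In all, 6 of these 7 uptake carriers rose in liver against each of the 4 other tissues, also with trimmed-mean scaling, with a median log2 fold change of 5.69 against pancreas, 6.13 against parotid, 6.06 against submandibular gland and 5.88 against sublingual gland. SLC10A5 reached 1 TPM in liver only and so entered the tested set through liver alone, which favoured a rise there.

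Of the canalicular pumps 7 of 7 rose in liver in each of the 4 comparisons, with trimmed-mean scaling too. Their median log2 fold change ran from 4.37 against pancreas to 4.55 against parotid and submandibular gland. Rises made up 23.6% of all genes against pancreas, 53.4% against parotid, 45.1% against submandibular gland and 18.7% against sublingual gland. With scaling these shares were 21.6, 23.5, 25.9 and 23.7%. ABCB11, ABCB4, ABCC2 and ABCG8 reached 1 TPM in no library outside liver and so entered the tested set through liver alone. That filter favoured a rise in liver for them. ABCG5 and ABCG8, which pair to secrete cholesterol and plant sterols, had 22.01 to 74.1 TPM (median 38.8) and 27.6 to 129 TPM (median 39.2) in liver. Both were highest in animal 1 and lowest in animal 3. Outside liver ABCG5 was at most 1.51 TPM and ABCG8 at most 0.699 TPM. ABCB11 (BSEP), the bile salt export pump, ran from 18.8 to 37.1 TPM (median 31.0) in liver and from 0.160 to 0.472 TPM elsewhere. ABCB4 (MDR3), which brings phosphatidylcholine into bile, had 22.4 to 38.9 TPM (median 26.0) in liver and at most 0.717 TPM elsewhere. ABCC2 (MRP2), the exporter of bilirubin glucuronides, had 13.3 to 38.1 TPM (median 27.6) in liver and at most 0.554 TPM elsewhere. Against pancreas the differences were 5.14 ± 0.25 (adjusted p = 1.56e-15) for ABCG8, 4.44 ± 0.17 (adjusted p = 9.50e-18) for ABCB11, 4.39 ± 0.23 (adjusted p = 8.78e-15) for ABCG5, 4.37 ± 0.17 (adjusted p = 1.27e-17) for ABCB4 and 4.18 ± 0.19 (adjusted p = 3.68e-16) for ABCC2, each in 6 of 6 animals.

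The broad drug pumps ABCB1 (P-glycoprotein) and ABCG2 (BCRP) stood below the other canalicular pumps in liver, and their liver range overlapped with other tissues. ABCB1 had 1.62 to 10.5 TPM (median 3.79) in liver, 0.303 to 2.08 TPM (median 0.505) in pancreas and 0.0620 to 0.140 TPM (median 0.112) in parotid. ABCG2 had 3.45 to 11.3 TPM (median 5.09) in liver, 0.194 to 2.95 TPM (median 1.57) in sublingual gland and 0.490 to 7.65 TPM (median 0.874) in pancreas. The highest pancreas and submandibular values of both genes belonged to animal 4, whose ABCG2 reached 7.65 and 6.39 TPM in these libraries beside the adipocyte and endothelial markers given above, whose part in the result was not tested. ABCB1 was higher in liver than in pancreas by 1.44 ± 0.30 (adjusted p = 4.47e-04) and ABCG2 by 1.43 ± 0.41 (adjusted p = 0.00880), each in 5 of 6 animals. The call for ABCG2 ended without animal 2 (adjusted p = 0.0691), animal 5 (adjusted p = 0.0665) or animal 6 (adjusted p = 0.05001). Its rise against sublingual gland (adjusted p = 0.00542) ended as a call without animal 6, at 1.13 (adjusted p = 0.0527).

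**Figure D2:**
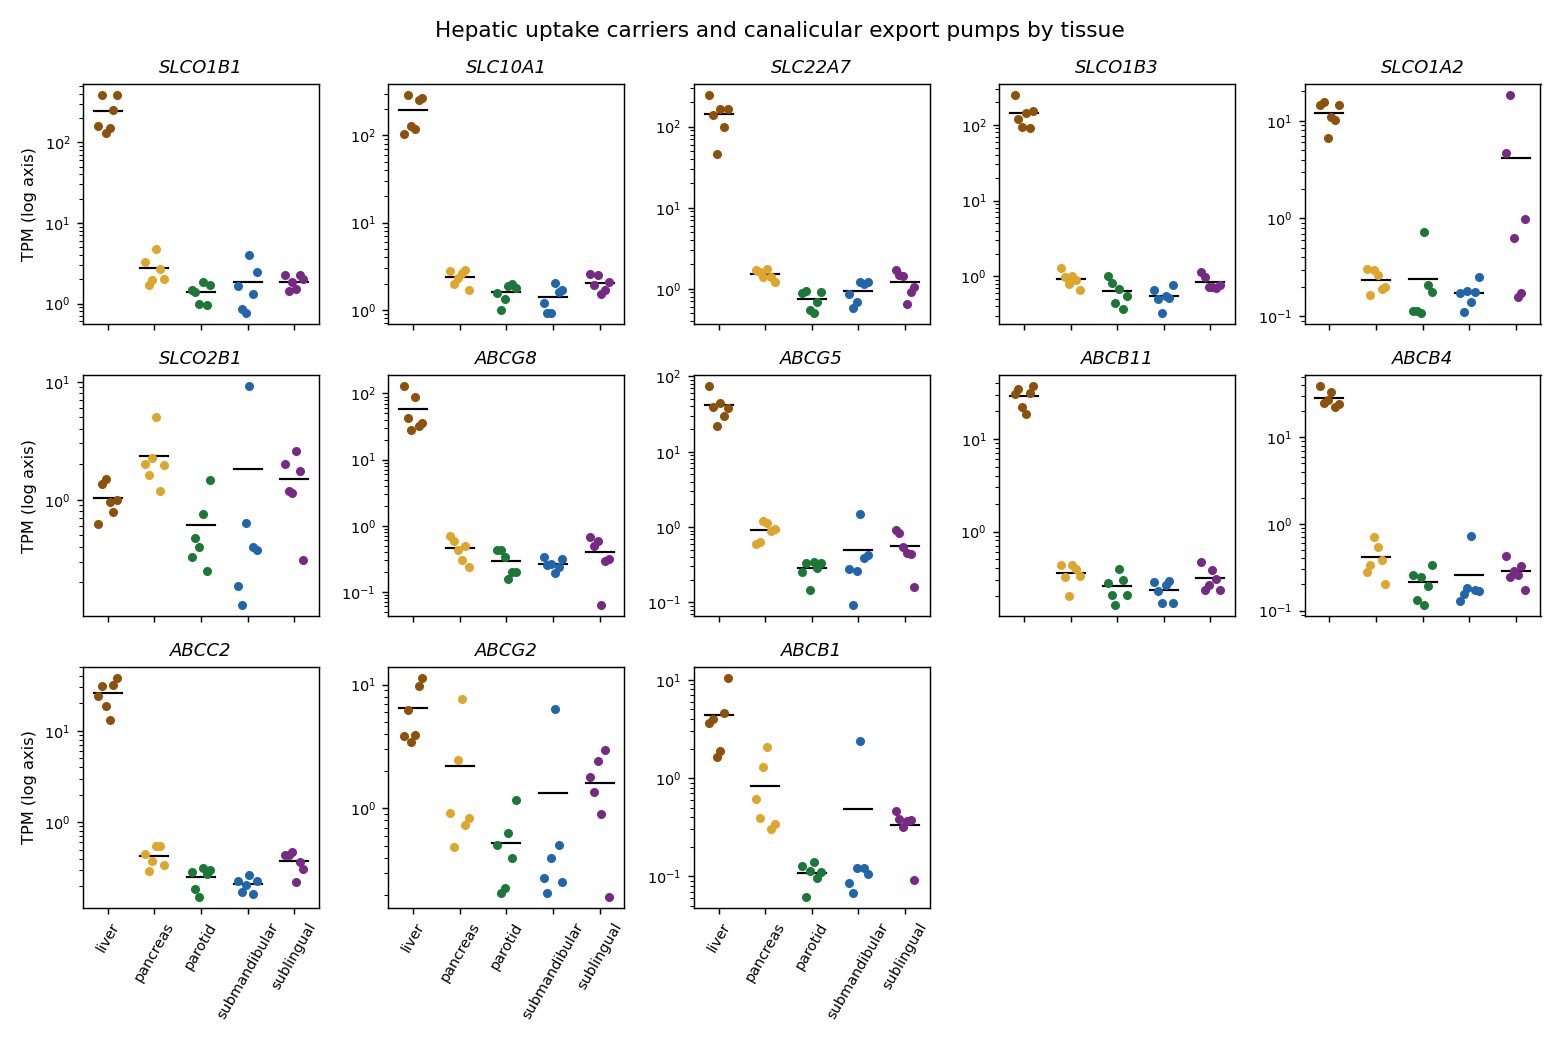
TPM on a log axis of 6 uptake carriers and 7 canalicular pumps, by tissue, with 1 point per animal and a bar at the mean of the 6 animals. Points of liver stand above all others for SLCO1B1, SLC10A1, SLC22A7, SLCO1B3, ABCG8, ABCG5, ABCB11, ABCB4 and ABCC2, and overlap with other tissues for SLCO1A2, SLCO2B1, ABCG2 and ABCB1.

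Outside liver, a part of the liver carriers stood at a low fraction of their liver level. Of 19 members with a liver mean of at least 10 TPM, the median over the 6 animals was at most 2% of the same animal's liver for 9 members in pancreas, 10 in sublingual gland, 11 in parotid and 12 in submandibular gland. The 8 for which it was so in every tissue were chosen by that limit, which fixes their closeness: ABCB11, ABCB4, ABCC2, ABCG8, SLC10A1, SLC22A7, SLCO1B1 and SLCO1B3. SLC10A1 stood at 1.47% in pancreas, 1.02% in sublingual gland, 0.920% in parotid and 0.679% in submandibular gland. SLCO1B3 was the lowest of the 8 in each tissue, at 0.761% in pancreas, 0.635% in sublingual gland, 0.437% in parotid and 0.398% in submandibular gland. Over 9 markers of hepatocytes, albumin and fibrinogen chains included, the median of these percentages was 0.812 in pancreas, 0.834 in sublingual gland, 0.579 in parotid and 0.545 in submandibular gland. No marker of the 9 was at 0 in any library, and their summed level was 92761 to 140634 TPM in liver, 1124 to 5160 TPM in pancreas, 854 to 1125 TPM in sublingual gland, 535 to 877 TPM in parotid and 472 to 957 TPM in submandibular gland. By library, the median over the 8 members ran from 0.692 to 1.92% in pancreas and from 0.491 to 1.55% in submandibular gland, and that over the 9 markers from 0.610 to 2.34% and from 0.361 to 1.37%. The members stood highest in animal 4 in pancreas, parotid and submandibular gland and in animal 3 in sublingual gland, while the markers stood highest in animal 1 in all 4. The part of hepatocyte transcripts in the levels of these carriers outside liver was not tested.

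Some liver carriers stood clear of that level. ABCC6 had 8.84% of its liver level in pancreas but 0.649% in submandibular gland, 0.665% in sublingual gland and 1.22% in parotid. ABCC3 had 58.3% in pancreas. ABCA6 and SLC22A18 had 15.3 and 17.4% in sublingual gland. TTR was the 1 hepatocyte marker above the others in pancreas, at 8.32%. It is known to be made in islets as well.

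Over all members, 29 of the 55 tested were higher and 4 lower in liver than in pancreas, where 23.6% of all genes were higher and 6.76% lower. Against parotid 40 were higher and 4 lower (all genes 53.4% and 4.61%). Against submandibular gland 38 were higher and 3 lower (all genes 45.1% and 5.68%), and against sublingual gland 28 were higher and 5 lower (all genes 18.7% and 12.8%). The median log2 fold change of the members was 1.06, 1.41, 1.41 and 0.91 in these 4 comparisons, and that of all genes 0.36, 0.84, 0.70 and 0.10. TPM are shares of a fixed total, and the 10 most abundant genes took up to 81.4% of a parotid library and at most 27.4% of a liver library. Trimmed-mean scaling brought the median of all genes to between -0.01 and 0.04 in the 4 comparisons, and the calls to 30 higher and 8 lower against pancreas, 29 and 5 against parotid, 31 and 5 against submandibular gland, and 33 and 5 against sublingual gland. With that scaling 21.6, 23.5, 25.9 and 23.7% of all genes were higher and 15.2, 20, 20.8 and 20.4% lower. Where the text below gives a direction for a gene or group, it is on the deposited scale unless scaling is named.

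The enzymes that make bile acids were liver genes as well. Of 14 listed genes of bile acid synthesis and conjugation 12 were in the table. In liver 12 of 12 rose against each other tissue, with a median log2 fold change from 3.72 against sublingual gland to 4.18 against parotid. The share of all genes that rose ran from 18.7% against sublingual gland to 53.4% against parotid. CYP7A1, the rate-limiting enzyme, had 28.5 ± 34.8 TPM in liver (SD, n = 6) and at most a mean of 0.406 TPM elsewhere. It reached 1 TPM in liver only and so entered the tested set through liver alone, which favoured a rise there. AKR1C4, which reduces the steroid ring, had 344 ± 139.6 TPM. Of 13 tested genes that sense bile acids or help the pumps, 9 rose and 1 fell in liver against pancreas, 11 rose against parotid, 10 against submandibular gland, and 8 rose and 1 fell against sublingual gland. With trimmed-mean scaling 8 rose and 2 fell, 9 rose and 1 fell, 8 rose and 2 fell, and 8 rose and 1 fell. Among all genes 23.6, 53.4, 45.1 and 18.7% rose and 6.76, 4.61, 5.68 and 12.8% fell as deposited. With scaling 21.6, 23.5, 25.9 and 23.7% rose and 15.2, 20, 20.8 and 20.4% fell. NR1H4 (FXR), the bile acid receptor that switches on ABCB11, had 22.1 TPM in liver and at most 0.386 TPM as a mean elsewhere. Like CYP7A1, NR1H4 entered the tested set through liver alone. NR0B2 (SHP), its target and a repressor of bile acid synthesis, had a mean of 4.27 TPM in pancreas, 0.202 TPM in parotid and 33.2 TPM in liver. ATP8B1, the phospholipid flippase of the canalicular membrane, was the gene that fell, with liver differences of -1.28 from pancreas (adjusted p = 0.00260) and -1.20 from sublingual gland (adjusted p = 0.00408). SLC51A, part of the basolateral bile acid exporter, had means of 11.99 TPM in liver and 12.5 TPM in sublingual gland. CFTR, the ABC superfamily chloride channel of duct cells, had means of 4.14 TPM in pancreas, 3.37 TPM in submandibular, 0.561 TPM in sublingual and 0.293 TPM in parotid gland, and 0.166 TPM in liver.

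Among the other ABCC exporters, ABCC6, a liver and kidney transporter whose loss leads to calcification of connective tissue, had 25.7 to 52.9 TPM (median 48.7) in liver and 0.799 to 6.26 TPM (median 3.32) in pancreas. Parotid, submandibular and sublingual libraries held at most 0.785 TPM, below every pancreas library. Its lowest pancreas value, 0.799 TPM, belonged to animal 4. ABCC6 fell against pancreas, with a log2 difference of -1.51 in parotid (adjusted p = 1.08e-04), -1.70 in the submandibular (adjusted p = 2.91e-05) and -1.64 in sublingual gland (adjusted p = 3.00e-05), in 6 of 6 animals each. ABCC3 (MRP3), a basolateral exporter of bile salts and glucuronides, had 8.40 to 33.3 TPM (median 14.5) in liver and 6.12 to 23.1 TPM (median 8.25) in pancreas, which overlap, and the difference of 0.64 ± 0.44 (adjusted p = 0.297) did not pass. Parotid held 0.243 to 0.536 TPM. In submandibular gland animal 4 had 5.08 TPM and the others at most 0.271 TPM. In sublingual gland animals 1 and 4 had 9.85 and 8.35 TPM and the others 0.250 to 0.689 TPM. ABCC3 fell against pancreas too, by a log2 difference of -2.96 in parotid (adjusted p = 2.78e-05), -2.71 in submandibular gland (adjusted p = 1.13e-04) and -1.86 in sublingual gland (adjusted p = 0.00434). The sublingual call ended without animal 3 (adjusted p = 0.0523) and in a fit to only the 12 libraries compared (adjusted p = 0.0618). Without the 3 libraries and the sublingual libraries of animals 1 and 4, an alternative chosen after the data were seen, the sublingual difference was -2.88. Those sublingual libraries held the highest ABCC3 values of the gland. Leaving them out favoured a larger fall, so no p-value is given for it.

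ABCC10 (MRP7), a broad drug exporter, was among the 3 members of highest mean in pancreas, with 6.30 to 34.6 TPM (median 11.4) there and 8.20 to 25.7 TPM (median 15.4) in liver. Its liver difference from pancreas was -0.0037 ± 0.35 (adjusted p = 0.995). Submandibular libraries held 3.34 to 8.22 TPM, and their log2 difference from pancreas was -1.42 (adjusted p = 0.00742), in 5 of 6 animals, a call that ended without animal 3 or 5 (adjusted p from 0.0794 to 0.0944). ABCC1 (MRP1), an exporter of glutathione conjugates found in most tissues, had the opposite order to the liver pumps, with 1.53 to 2.76 TPM (median 1.88) in parotid and 0.170 to 0.484 TPM (median 0.295) in liver, which do not overlap. Liver minus parotid was -1.15 (adjusted p = 0.00129) in 6 of 6 animals, and liver minus sublingual gland -0.89 (adjusted p = 0.0156) in 5 of 6. The latter call ended without animal 1, 2 or 5 (adjusted p from 0.0512 to 0.0933). ABCC4 (MRP4), which exports cyclic nucleotides, had 0.842 to 1.65 TPM in liver and 0.331 to 0.545 TPM in pancreas, and rose in liver by 0.66 ± 0.16 (adjusted p = 0.00174). ABCC5 (MRP5), another exporter of cyclic nucleotides, had 2.79 to 9.26 TPM in liver and 0.662 to 14.3 TPM in submandibular gland, and rose in liver there by 1.23 ± 0.49 (adjusted p = 0.0383). That call ended with trimmed-mean scaling, at 0.66 (adjusted p = 0.103), and without animal 1, 2, 3 or 5 (adjusted p from 0.0888 to 0.176). Of 6 tested exporters of this group 2 rose in liver against pancreas, 4 rose and 1 fell against parotid, 5 rose against submandibular gland, and 3 rose and 1 fell against sublingual gland. With trimmed-mean scaling the rises were 2, 3, 3 and 3, and 1 fell in each gland comparison. Of all genes, 23.6, 53.4, 45.1 and 18.7% rose and 6.76, 4.61, 5.68 and 12.8% fell as deposited. With scaling 21.6, 23.5, 25.9 and 23.7% rose and 15.2, 20, 20.8 and 20.4% fell.

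ABCC8 (SUR1), the sulfonylurea-binding subunit of the potassium channel that couples glucose to insulin release, was the member that stood out in pancreas. It had 8.46, 5.10, 65.7, 1.75, 5.52 and 7.45 TPM in animals 1 to 6. Insulin (INS) in the same libraries was 11444, 6281, 127239, 408, 10727 and 8897 TPM, so animal 3 was the highest and animal 4 the lowest for both. Outside pancreas ABCC8 did not pass 0.779 TPM, and its tissue means were 0.688 to 1.33% of the pancreas mean beside 0.413 to 1.25% for INS. Of the other islet markers, GCG, IAPP and SST stood at 0.402 to 0.996% and CHGA at 0.228 to 3.16%. PPY went another way, at 57.1% in submandibular gland, 19.5% in sublingual gland, 4.24% in liver and 4.18% in parotid. The pancreas means, 15.7 TPM for ABCC8 and 27499 TPM for INS, were raised by animal 3. Whether islet transcripts account for those low values was not tested. ABCC8 fell against pancreas everywhere, with log2 differences of -2.93 ± 0.38 (adjusted p = 7.10e-07) in liver, -3.05 in parotid (adjusted p = 2.06e-06), -2.97 in submandibular gland (adjusted p = 4.02e-06) and -2.96 in sublingual gland (adjusted p = 2.45e-06), each in 6 of 6 animals. Its relative ABCC9 (SUR2), the subunit of muscle and vessel channels, had instead 1.99 to 4.89 TPM (median 3.39) in liver and rose there by 1.68 ± 0.23 (adjusted p = 1.63e-06) against pancreas.

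SLC22A17, a cell-surface receptor for the iron-binding protein lipocalin-2, had the highest mean of all members in pancreas and in each salivary gland over the 6 animals. In submandibular gland its mean fell from 22.3 to 14.2 TPM without animal 4, beside 13.8 TPM for SLC22A3, and in parotid ABCF1 ranked above it without animal 2 or 3. It stood at 34.6 to 76.0 TPM (median 49.5) in pancreas, 7.30 to 16.5 TPM (median 11.3) in parotid, 11.4 to 53.8 TPM (median 27.7) in sublingual gland and 2.86 to 4.85 TPM (median 3.55) in liver. In submandibular gland animal 4 had 62.7 TPM and the other 5 11.5 to 17.4 TPM. No liver library reached the lowest value of any other tissue. The log2 difference of liver was -3.42 ± 0.37 (adjusted p = 2.36e-08) from pancreas, -2.51 from sublingual gland (adjusted p = 3.77e-06), -2.04 from submandibular gland (adjusted p = 5.88e-05) and -1.44 from parotid (adjusted p = 0.00186), in 6 of 6 animals each. Parotid minus pancreas was -1.98 (adjusted p = 3.46e-04). Submandibular gland minus pancreas was -1.38 (adjusted p = 0.0134), and with trimmed-mean scaling the adjusted p was 0.0736. That call also ended without animal 1, 2, 3 or 6 (adjusted p from 0.0679 to 0.121). For sublingual gland the difference from pancreas was -0.91 ± 0.37 (adjusted p = 0.102), and it passed with trimmed-mean scaling at -1.18 (adjusted p = 0.0103). SLC22A23, an orphan relative, had tissue means of 1.29 to 2.19 TPM and passed in none of the 10 comparisons. Without the 3 libraries it was called lower than pancreas in parotid (adjusted p = 0.0319) and submandibular gland (adjusted p = 0.0455).

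SLC22A3 (OCT3), a carrier of monoamines and other organic cations, was a salivary gland member. Submandibular gland held 12.2 to 16.9 TPM (median 13.5), the narrowest spread of this gene in any gland, and parotid 3.03 to 12.5 TPM (median 7.18). Sublingual gland had 4.69, 15.7, 20.7, 0.539, 25.6 and 9.30 TPM in animals 1 to 6, low in animals 1 and 4 and highest in animal 5, whose library had the raised muscle markers given above, whose part was not tested. Pancreas held 0.168 to 2.57 TPM and liver 0.532 to 1.00 TPM, below all parotid and submandibular libraries. SLC22A3 rose against pancreas by 3.19 ± 0.46 (adjusted p = 1.96e-05) in submandibular gland, 2.58 ± 0.46 (adjusted p = 1.87e-04) in sublingual gland and 2.28 ± 0.46 (adjusted p = 9.00e-04) in parotid. The sublingual rise held in 5 of 6 animals, and was 3.64 without the 5 libraries that stood apart. Those left out include the sublingual libraries of animals 1 and 4, the lowest of that gland, which favoured a larger rise. Liver minus gland was -2.18 for parotid, -3.09 for submandibular gland and -2.48 for sublingual gland.

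The carnitine carriers showed another pattern. SLC22A4 (OCTN1), which takes up ergothioneine, had 1.31 to 6.10 TPM (median 3.95) in sublingual gland, 0.734 to 4.68 TPM in liver, 0.734 to 1.52 TPM in parotid, 0.583 to 1.25 TPM in submandibular gland and 0.214 to 0.519 TPM in pancreas. Every library of the 3 glands exceeded every pancreas library. The rise against pancreas was 1.75 ± 0.28 (adjusted p = 5.96e-05) in sublingual gland, while parotid with 0.63 ± 0.28 (adjusted p = 0.121) and submandibular gland with 0.41 ± 0.28 (adjusted p = 0.392) did not pass. With trimmed-mean scaling both passed, at 1.05 (adjusted p = 9.89e-04) and 0.67 (adjusted p = 0.0338). SLC22A5 (OCTN2), the main carnitine carrier, had 3.88 to 17.5 TPM (median 8.39) in liver and 2.01 to 8.25 TPM (median 3.66) in pancreas, with a difference of 0.82 ± 0.33 (adjusted p = 0.0615). It passed at 0.89 (adjusted p = 0.0304) without the 3 libraries. Against parotid SLC22A5 was higher in liver by 1.41 ± 0.33 (adjusted p = 8.62e-04), a call that ended with trimmed-mean scaling (adjusted p = 0.168). Against sublingual gland it was higher by 0.88 ± 0.33 (adjusted p = 0.0417) in 4 of 6 animals. That call ended in 7 of the alternatives, among them leaving out animal 1, 3, 4 or 6 (adjusted p from 0.0994 to 0.145).

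SLC22A18, an orphan carrier from an imprinted region, had 38.3 to 104 TPM (median 65.9) in liver, 7.70 to 19.8 TPM (median 10.7) in sublingual gland and 1.40 to 10.3 TPM (median 2.41) in pancreas. It rose in liver by 3.89 ± 0.34 (adjusted p = 3.93e-10) against pancreas, and in sublingual gland by 1.53 ± 0.34 (adjusted p = 0.00198) against pancreas, in 6 of 6 animals each. SLC22A11 (OAT4), a carrier of steroid sulfates and urate, had 1.23 to 2.73 TPM in liver and at most 0.340 TPM elsewhere.

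**Figure D3:**
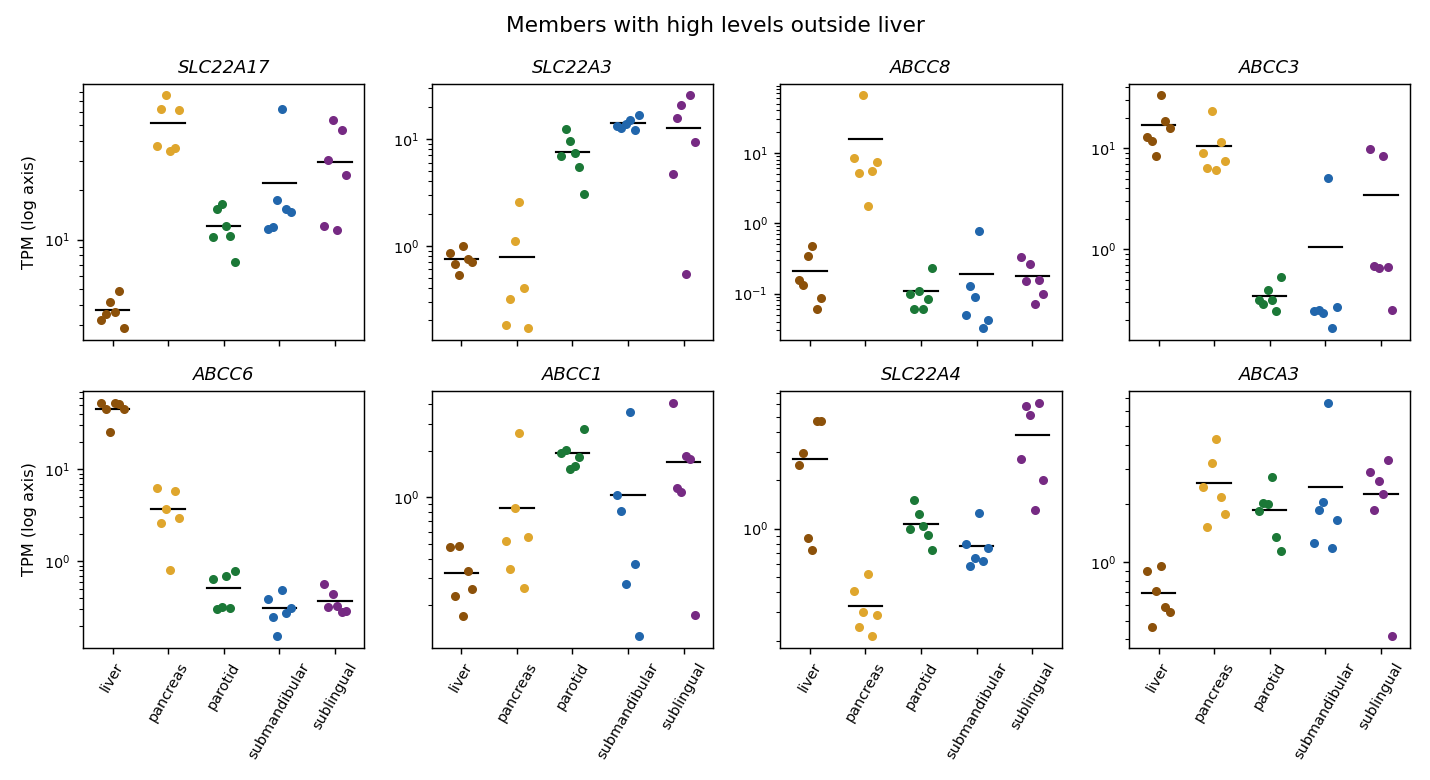
TPM on a log axis of 8 members with high levels outside liver, by tissue, with 1 point per animal and a bar at the mean of the 6 animals. SLC22A17 is lowest in the 6 livers, SLC22A3 is high in the salivary glands, ABCC8 is high only in pancreas among the 5 tissues, and ABCC3 in sublingual gland has 2 points near 9 TPM above 4 points under 1 TPM.

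Set against pancreas, the glands gave 7 to 9 called members each. In parotid 1 was higher (SLC22A3) and 8 lower (ABCA2, ABCA5, ABCC3, ABCC6, ABCC8, ABCD3, SLC22A17 and SLCO2B1), where 2.24% of all genes were higher and 13.6% lower. With trimmed-mean scaling 4 were higher and 9 lower (all genes 8.92% and 8.45%). The count was 5 without animal 1, 2, 3 or 5, when ABCA2, ABCA5, ABCD3 and SLCO2B1 did not pass (adjusted p from 0.0548 to 0.189), and 18 without the 3 libraries that stood apart. Without those 3 libraries 3.34% of all genes were higher and 24.8% lower. In submandibular gland 1 was higher (SLC22A3) and 6 lower, with ABCC10 besides the shared 5 named below (all genes 2.25% and 7.46%), against 3 and 6 with trimmed-mean scaling (all genes 8.25% and 7.82%). Without animal 4 the count rose from 7 to 15, without animal 3 it was 4, and without the 3 libraries it was 18. In these fits 25.2, 3.15 and 30.9% of all genes were lower. In sublingual gland 4 were higher (SLC22A3, SLC22A4, SLC22A18 and SLCO1A2) and 3 lower (ABCC3, ABCC6 and ABCC8), where 10.4% of all genes were higher and 3.51% lower. The call of SLCO1A2 there, at 1.18 ± 0.40 (adjusted p = 0.0488), ended without animal 1, 2, 3 or 6 (adjusted p from 0.0684 to 0.281). Trimmed-mean scaling gave 5 and 8 in that gland (all genes 11.4% and 9.97%). There 11 members passed without animal 4 and 13 without the 3 libraries, where 26.6% and 32% of all genes were higher. The members called lower in both parotid and submandibular gland were ABCA5, ABCC3, ABCC6, ABCC8 and SLC22A17, of which ABCA5 in submandibular gland did not pass without animal 1, 2, 3, 5 or 6 (adjusted p from 0.0594 to 0.263). All 3 comparisons share the same pancreas libraries.

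Between parotid and submandibular gland no member passed in limma (0 higher and 0 lower, beside 0.133% and 0.214% of all genes), and 1 had an unadjusted p under 0.05. With trimmed-mean scaling 1 passed, ABCC1, which was higher in parotid by 1.06 (adjusted p = 0.00519), where 0.295% of all genes were higher and 0.421% lower. Parotid was lower than sublingual gland for 14 members and higher for 0 (all genes 40.6% and 0.893%). Trimmed-mean scaling changed that split to 3 higher and 1 lower (all genes 8.43% and 9.11%), and the median of all genes from -0.70 to 0.01. ABCA6 was the 1 member that stayed lower with scaling, at -1.55 as deposited (adjusted p = 0.00402) and -0.93 with scaling (adjusted p = 0.00966), in 6 of 6 animals. ABCD4 was at -1.36 (adjusted p = 0.0112) and did not pass with scaling at -0.39 (adjusted p = 0.322), nor without animal 1 (adjusted p = 0.0530) or animal 3 (adjusted p = 0.0552). The count of 14 was 5 without animal 1 or 3, 8 without animal 2, 6 without animal 5, 27 without animal 6, and 30 without the 3 libraries. Of all genes 20.4% were lower without animal 1, 58.9% without animal 6 and 68.1% without the 3 libraries.

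Submandibular gland was lower than sublingual gland for 8 members and higher for 0 (all genes 27.2% and 0.753%). After trimmed-mean scaling 3 were higher and 2 lower (all genes 6.46% and 8.26%), with a shift of the all-gene median from -0.56 to -0.01. The 2 that were lower on both scales were SLC22A4, at -1.33 ± 0.28 (adjusted p = 0.00163) as deposited, and ABCA5, at -0.76 ± 0.19 (adjusted p = 0.00521), in 6 of 6 animals each. In a fit to only the 12 libraries compared their adjusted p-values were 0.0665 and 0.0794, and no member passed. Without animal 1 that of ABCA5 was 0.0571. The count of 8 was 1 to 4 without animal 1, 2, 3 or 5, 23 without animal 4, 29 without the 3 libraries and 24 without the 5 libraries. Of all genes 9.08% were lower without animal 1, 64.5% without animal 4, 68.6% without the 3 libraries and 62.1% without the 5 libraries.

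The lipid transporters divided by gene. ABCA6, from a cluster of A-family genes whose cargo is not well known, had 19.5 to 47.5 TPM (median 26.5) in liver and at most 13.5 TPM elsewhere, the latter in the submandibular library of animal 4. ABCA8 and ABCA9, of the same cluster, had 2.17 to 10.4 TPM and 3.70 to 15.1 TPM in liver. They had 13.5 and 5.55 TPM in that same library, and the other 5 submandibular libraries held at most 0.575 and 0.389 TPM. ABCA5, also of that cluster, was lower in liver than in pancreas and sublingual gland, as given below. ABCA1, which loads cholesterol onto apolipoprotein A-I, had 1.27 to 3.10 TPM in liver and at most 1.24 TPM elsewhere, and rose in liver by 1.15 ± 0.20 (adjusted p = 7.64e-05) against pancreas. ABCG1, which loads cholesterol onto HDL, had 1.44 to 5.22 TPM in liver and 1.07 to 10.6 TPM in pancreas and did not pass in any of the 4 liver comparisons, where its differences were 0.03, 0.53, 0.20 and 0.04. Their signs turned with trimmed-mean scaling, and without animal 4 ABCG1 was called higher in liver than in parotid (adjusted p = 0.0362) and submandibular gland (adjusted p = 0.0487). ABCA3, the lipid transporter of lung lamellar bodies, went the other way, with 0.464 to 0.953 TPM in liver and 1.51 to 4.30 TPM in pancreas, and its liver difference was -1.03 from pancreas (adjusted p = 0.00126), -0.73 from parotid (adjusted p = 0.0107, and 0.0564 without animal 2), -0.87 from submandibular gland (adjusted p = 0.00360) and -0.85 from sublingual gland (adjusted p = 0.00599). ABCA5, a lysosomal member, had 0.173 to 0.476 TPM in liver, 0.634 to 1.499 TPM in pancreas and 0.539 to 2.08 TPM in sublingual gland, with liver differences of -0.61 from pancreas (adjusted p = 0.0146, a call that ended without animal 2, 3 or 5) and -0.74 from sublingual gland (adjusted p = 0.00288). ABCA2, a lysosomal lipid transporter best known from myelin-forming cells, had 6.86 to 11.6 TPM in liver, 5.64 to 23.5 TPM in pancreas and 2.85 to 5.56 TPM in parotid, and parotid minus pancreas was -1.38 ± 0.42 (adjusted p = 0.0276). ABCA7, which is linked to phagocytosis and Alzheimer's disease, had tissue means of 0.716 to 1.82 TPM and passed in none of the 10 comparisons, but without the 3 libraries it was called higher in liver than in parotid (adjusted p = 0.0292) and submandibular gland (adjusted p = 0.0160), and lower in both than in sublingual gland (adjusted p = 0.00114 and 6.51e-04). Of 9 tested lipid transporters 3 rose and 2 fell in liver against pancreas, 5 rose and 1 fell against parotid, 4 rose and 1 fell against submandibular gland, and 3 rose and 2 fell against sublingual gland. The shares of all genes that rose in these comparisons were 23.6, 53.4, 45.1 and 18.7%, and 6.76, 4.61, 5.68 and 12.8% fell. With trimmed-mean scaling the rises were 4 in each comparison and the falls 3, 1, 1 and 2. On that scale 21.6, 23.5, 25.9 and 23.7% of all genes rose and 15.2, 20, 20.8 and 20.4% fell.

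Members that serve organelles were present in all 5 tissues. ABCD4, which brings vitamin B12 out of lysosomes, had 36.6 to 100.4 TPM (median 54.7) in liver, 8.21 to 27.6 TPM (median 21.0) in sublingual gland and 6.14 to 33.0 TPM (median 12.1) in pancreas, and rose in liver by 2.04 ± 0.41 (adjusted p = 3.06e-04) against pancreas. ABCD3, a peroxisomal fatty acid transporter, had 9.49 to 16.6 TPM in liver, above every other library, and rose there by 1.25 ± 0.31 (adjusted p = 0.00258) against pancreas. Of ABCB6, ABCB8 and ABCB10, 1 rose in liver against pancreas, 3 against parotid, 3 against submandibular gland and 1 against sublingual gland, with trimmed-mean counts of 1, 1, 1 and 2. The shares of all genes that rose were 23.6, 53.4, 45.1 and 18.7% as deposited and 21.6, 23.5, 25.9 and 23.7% with scaling. ABCB8, of the mitochondrial inner membrane, had 7.05 to 11.3 TPM in liver and at most 4.60 TPM elsewhere. ABCB6, a porphyrin transporter, had 5.86 to 9.98 TPM in liver and rose against parotid by 1.16 ± 0.38 (adjusted p = 0.0117), and ABCB10, which serves haem synthesis, had 2.12 to 5.83 TPM and rose by 1.01 ± 0.33 (adjusted p = 0.0107). Neither passed against parotid with trimmed-mean scaling, where ABCB6 was at 0.18 (adjusted p = 0.483) and ABCB10 at 0.23 (adjusted p = 0.270). The call of ABCB6 also ended without animal 1 or 5 (adjusted p from 0.0520 to 0.0580), and that of ABCB10 without animal 2 (adjusted p = 0.0642).

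The ribosome factors were found in every tissue. ABCF1 and ABCF3, which act in translation, had 22.04 ± 1.99 TPM and 28.1 ± 3.43 TPM in liver (SD, n = 6), and were among the 3 members of highest mean in parotid. Parotid libraries of animals 1 to 5 held 5.99 to 9.28 TPM of ABCF1 and 6.60 to 8.9998 TPM of ABCF3, and animal 6, with high muscle markers, had 25.9 and 23.9 TPM. ABCF2, with tissue means of 2.75 to 3.63 TPM, and ABCE1, the ribosome recycling factor, with 6.98 TPM in liver, complete the group. Of these 4 genes 1 rose in liver against pancreas, 3 against parotid, 2 against submandibular gland and 0 against sublingual gland, while 1, 0, 1 and 1 rose with trimmed-mean scaling. Among all genes 23.6, 53.4, 45.1 and 18.7% rose as deposited and 21.6, 23.5, 25.9 and 23.7% with scaling. Without the 3 libraries 4 of 4 rose against pancreas, parotid and submandibular gland and 2 of 4 against sublingual gland, where 43.8, 68.7, 68.2 and 26.3% of all genes rose without them.

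Of the other SLCO carriers, SLCO4A1 had 3.41 to 9.18 TPM in liver and rose there by 2.37 ± 0.27 (adjusted p = 6.73e-08) against pancreas. SLCO2A1, the prostaglandin carrier, had 0.266 to 6.23 TPM in liver and 2.02 to 10.8 TPM in pancreas and did not pass, at -0.92 ± 0.38 (adjusted p = 0.0710). It was called lower in liver without animal 5 (adjusted p = 0.00737) and with trimmed-mean scaling, at -1.06 (adjusted p = 0.0226), which also called it lower in liver than in parotid, at -1.02 (adjusted p = 0.0238), and submandibular gland, at -0.89 (adjusted p = 0.0459). SLCO3A1 had 0.839 to 1.80 TPM in liver and 8.78 TPM in the submandibular library of animal 4, the other 5 holding at most 0.391 TPM. Of the other SLC10 genes, SLC10A3 had means of 3.37 to 7.68 TPM over the 5 tissues and did not pass in any liver comparison as deposited. With trimmed-mean scaling it was called lower in liver than in pancreas, at -0.58 (adjusted p = 0.0115), while without the 3 libraries it was called higher in liver than in parotid (adjusted p = 0.0112) and submandibular gland (adjusted p = 0.00586). SLC10A7, which is needed for skeletal growth, had 1.25 to 3.27 TPM in liver and 0.422 to 0.861 TPM in parotid, and rose in liver there by 0.85 ± 0.26 (adjusted p = 0.00735). With trimmed-mean scaling that difference was 0.22 (adjusted p = 0.427) and did not pass.

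Neighbouring genes did not always share a tissue. In RefSeq's annotation of T2T-MMU8v2.0, where 62 of the 63 members were found, SLCO1B3, SLCO1B1 and SLCO1A2 are adjacent and had their highest means in liver at 142, 245 and 11.99 TPM. ABCG5 and ABCG8 are adjacent, as are ABCC6, highest in liver, and ABCC1, highest in parotid. Close relatives such as SLCO1B1 and SLCO1B3, or ABCB1 and ABCB4, can share reads, and how these were divided is not stated in the sources used here.

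Within liver the members differed between animals in opposite ways. SLC10A1 was 103, 294, 127, 119.8, 252 and 270.3 TPM in animals 1 to 6, and SLCO1B1 was 159, 390.4, 129, 152, 252 and 387 TPM. SLC22A18 was 41.8, 83.5, 51.0, 38.3, 80.7 and 104 TPM. Animals 2, 5 and 6 had the higher values of these 3 genes. ABCD4 was 100.4, 37.1, 70.5, 80.5, 36.6 and 38.9 TPM, and ABCC10 was 25.7, 8.26, 19.9, 19.95, 10.9 and 8.20 TPM. SLC22A5 was 17.5, 4.77, 12.8, 11.9, 3.88 and 4.92 TPM. Animals 1, 3 and 4 had the higher values of these latter 3 genes. A list of 6 genes of splicing factors and their kinases, CLK1 and SRSF5 among them and put together after the data were seen, had liver medians of 76.4, 30.0, 57.7, 66.9, 27.3 and 26.9 TPM in the same order of animals. Mitochondrially encoded genes took 24.7, 10.5, 19.6, 21.6, 17.0 and 13.8% of the liver libraries. The part of either in the members' values was not tested, and the order of the animals was seen in the data, so no test is given. SLC22A7 had its lowest liver value in animal 3, 45.9 TPM, below the 98.9 to 249 TPM of the others.

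**Figure D4:**
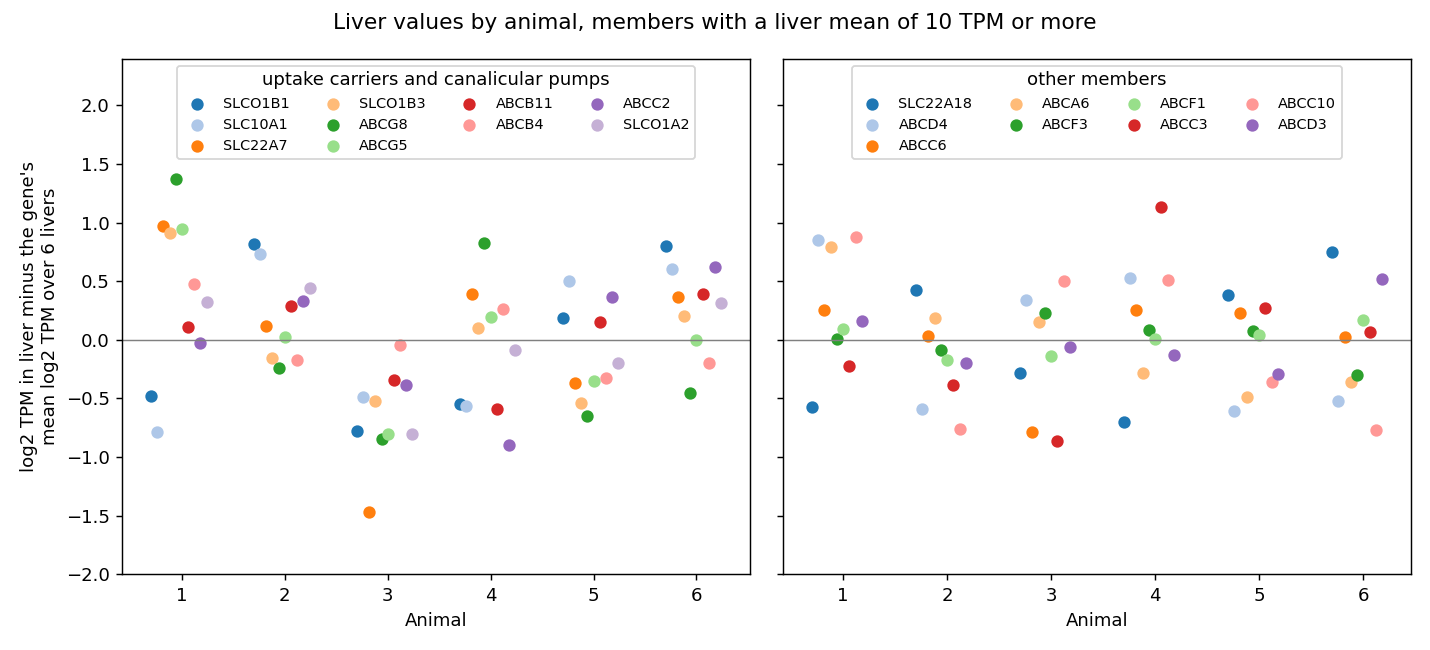
Liver log2 TPM of each of 19 members with a liver mean of at least 10 TPM, minus the gene's own mean over the 6 livers, by animal, with uptake carriers and canalicular pumps on the left and other members on the right. SLCO1B1 and SLC10A1 lie below 0 in animals 1, 3 and 4, and ABCD4 and ABCC10 lie above 0 in the same animals.

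The sublingual libraries of animals 1 and 4 differed from the other 4 in several members. ABCG4, a relative of ABCG1, had 5.10 and 8.29 TPM there and at most 0.154 TPM in the others, and at most 0.756 TPM in any library of another tissue. SLCO4A1 had 1.57 and 5.77 TPM there against at most 0.308 TPM. ABCC3 followed the same split, and SLC22A3 was lowest in these libraries at 4.69 and 0.539 TPM. Genes of squamous epithelium were high in the same libraries: the median of 6 such genes, chosen after the data were seen, was 5113, 21.95, 0.382, 15842, 63.3 and 0.414 TPM in animals 1 to 6. KRT13, a keratin of the oral lining, had 10694 and 34537 TPM, and SPRR3, a cornified envelope protein, 14719.6 and 38847 TPM. Their part in the members' values was not tested.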

How the data were processed

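Total RNA from frozen tissue sections was sequenced in 30 libraries, per the labels' protocols. The authors deposited 1 table of TPM values, and every column sums to 1000000, which leaves the depth unknown, and intervals that need it are not given. Their processing notes name FastQC, MultiQC, cutadapt, HISAT2, kallisto, SAMtools, featureCounts and DESeq2 without versions. The name of the table points to kallisto. The transcriptome and the summing of transcripts to genes are not given in the sources used here. As the values are TPM, no count test was used.

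From the table, limma 3.58.1 in R 4.3.3 was fitted to log2(TPM + 1) with tissue and animal over all 30 libraries, with a variance trend, for the 13550 genes that reached 1 TPM in 6 or more libraries. P-values were two-sided, adjusted by Benjamini-Hochberg within each of 10 comparisons, with a threshold of 0.05. Animals pair the libraries, since the labels give 1 animal for each set of tissues: deviations from tissue means correlated at 0.161 within an animal and -0.0186 between animals. No column was left unused (0), 0 pairs of libraries were identical, and the highest correlation between libraries was 0.979. The fit was tested on simulated data.

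Members and lists were chosen with earlier results of these data known. Named genes were the 5 largest rises and 3 largest falls per liver comparison, the 3 largest each way for gland against pancreas and the 2 largest between glands, with the same direction in 6 animals; the 3 members of highest mean per tissue; and a list of hepatic, islet and lipid carriers. Others are described by role. Alternatives were no replicate block, unweighted trimmed-mean scaling (30% of log ratios and 5% of mean levels trimmed at each end), a pseudocount of 0.1, no filter, only the 12 libraries compared, leaving out each animal, and leaving out 3 or 5 libraries that stood apart. The last was added after the data were seen. SLC22A9, SLC22A10, SLC22A24 and SLC22A25 were not analysed here. The values of 3 members are not reported here, and counts over all members include them.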

Additional observations from a re-analysis of the deposited data

Results flagged for a closer look

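Sets of 6 libraries (a named member in a tissue) were examined where their mean was at least 1 TPM. Of 100 such sets, 14 held a value whose gap to its nearest neighbour exceeded Dixon's 95% critical share of the whole range. For independent sets not chosen by their values, chance gives about 1 in 20, or 5. These sets were neither, so the 14 cannot be set against that 5. In submandibular gland ABCA6, SLCO2B1, ABCG2 and ABCC3 reached the mean only through the value of animal 4 that was then picked out. In 10 of the 14 the value was that of the submandibular library of animal 4, which was far above the other 5: SLC22A17 at 62.7 TPM (next 17.4), ABCD4 at 40.9 TPM (next 5.18), ABCF1 at 34.6 TPM (next 8.09), ABCF3 at 29.1 TPM (next 6.57), SLC22A18 at 18.4 TPM (next 6.35), ABCA6 at 13.5 TPM (next 0.670), SLCO2B1 at 9.17 TPM (next 0.634), ABCA3 at 6.60 TPM (next 2.04), ABCG2 at 6.39 TPM (next 0.510) and ABCC3 at 5.08 TPM (next 0.271). In this library salivary markers were low and adipocyte, endothelial and macrophage markers high. The bulk of genes stood high there too, with a trimmed-mean factor of 2.89 against 0.462 to 0.667 in the other 5. The part of either in these values was not tested.

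In the parotid library of animal 6, with a skeletal muscle marker median of 9681 TPM, ABCF1 was 25.9 TPM (next 9.28) and ABCF3 was 23.9 TPM (next 8.9998). The trimmed-mean factor was 0.903 in that library and 0.506 to 0.789 in the remaining parotid libraries. ABCC6 in the liver of animal 3 was low, at 25.7 TPM (next 45.0). SLC22A5 in the sublingual library of animal 6 was low, at 0.642 TPM (next 3.31). The bulk of genes stood low there too, with a factor of 0.653 against 1.25 to 1.87 in the remaining sublingual libraries. The part of these factors in the values was not tested. In 47 comparisons between the 4 females and 2 males, 0 had every female move one way and every male the other. These 47 had been chosen for the same direction in all 6 animals, which fixes that count at 0. They therefore cannot show whether the sexes differ.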

How the results depend on the processing

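Over 102 pairs of a named member and a comparison, the alternatives gave 1326 values, of which 1277 kept direction and side of the threshold, 18 kept the direction but no longer passed, 13 newly passed and 18 changed sign. The counts of members called in the 4 liver comparisons (33, 44, 41 and 33) stayed within 1.5 times under every alternative: 29 to 39, 40 to 46, 36 to 48 and 31 to 34 when each animal was left out, and 42, 50, 48 and 39 without the 3 libraries that stood apart. Without those 3 libraries 43.8, 68.7, 68.2 and 26.3% of all genes were higher in liver. When each animal was left out, these shares were 15.7 to 41, 42.5 to 62.3, 31.6 to 67.5 and 14.6 to 22.6%. Without the replicate block, which pairs tissues by animal, the counts over the 10 comparisons were 33, 44, 42, 33, 8, 7, 6, 0, 12 and 6, and the call of SLC22A5 in liver against sublingual gland ended (0.88, adjusted p = 0.0732).

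Counts among pancreas and glands moved more, and the shares of all genes called moved with the settings too. Parotid against pancreas (9) gave 15 with a pseudocount of 0.1, 18 without the 3 libraries, 19 without the 5 libraries and 5 to 11 when an animal was left out. In these fits 17.2, 24.8, 28.1 and 5.37 to 18% of all genes were lower and at most 3.55% higher. The main fit had 13.6 and 2.24%. Submandibular gland against pancreas (7) gave 11 with only 12 libraries, 18, 19 and 4 to 15. There 14.7, 30.9, 33.7 and 3.15 to 25.2% of all genes were lower and at most 4.67% higher (main fit 7.46 and 2.25%). Sublingual gland against pancreas (7) gave 13 with trimmed-mean scaling, 13, 10 and 5 to 11. The shares of all genes were 11.4, 32, 24.5 and 5.64 to 26.6% higher (main fit 10.4%). Lower were 9.97, 5.76, 5.3 and 2.44 to 4.97% (main fit 3.51%). Parotid against submandibular gland (0) gave 1 with scaling and 1 without the 5 libraries, where 0.295 and 0.236% of all genes were higher and 0.421 and 0.487% lower. Parotid against sublingual gland (14) gave 4 with scaling, 30, 24 and 5 to 27. Of all genes 9.11, 68.1, 58.6 and 20.4 to 58.9% were lower (main fit 40.6%). With scaling 8.43% were higher, and at most 1.21% in the other fits. Submandibular against sublingual gland (8) gave 5 with scaling, 0 with only 12 libraries, 29, 24 and 1 to 23. The all-gene shares lower were 8.26, 4.61, 68.6, 62.1 and 9.08 to 64.5% (main fit 27.2%). With scaling 6.46% were higher, and at most 1.06% in the other fits.

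All changes of sign were in differences that did not pass. With trimmed-mean scaling, ABCG1 in liver was -0.19 against pancreas, -0.27 against parotid, -0.41 against submandibular gland and -0.065 against sublingual gland, SLCO2B1 was -0.12 against parotid and -0.13 against submandibular gland, and ABCC8 was -0.029 and -0.014 against the same glands. ABCG1 against pancreas was -0.04, -0.29, -0.17 and -0.03 without animals 1, 2, 5 and 6, with a range of -0.29 to 0.48 over the 6 omissions. Against submandibular gland it ran from -0.10 without animal 2 to 0.61, against sublingual gland from -0.071 without animal 2 to 0.13, and there it was -0.080 without the 5 libraries. SLCO2B1 against submandibular gland ran from -0.083 without animal 2 to 0.61, and ABCC8 there from -0.0069 without animal 3 to 0.11, and against sublingual gland from -0.054 without animal 4 to 0.078. The cause was not tested. Depth is unknown, so no limit of detection can be given for low members.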

Other observations

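Several members too low for the test were high in single libraries. SLC10A4, a carrier known from neurons, had 3.15 and 6.65 TPM in the livers of animals 3 and 6 and at most 0.0375 TPM in the other 4 livers. ABCA10 had 5.07 TPM in the liver of animal 1 and at most 0.845 TPM in the others. ABCC12, a member of unclear cargo, had 7.93 and 3.46 TPM in sublingual gland of animals 3 and 5, the latter library with a skeletal muscle marker median of 2482 TPM, and 0.0218 to 0.0514 TPM in pancreas. SLC22A8 (OAT3), known as a kidney anion carrier, had 0.916, 3.15, 0.653, 0.115, 1.53 and 0.541 TPM in the parotid libraries of animals 1 to 6 and 0.0234 to 0.0830 TPM in liver. SLC22A15 had a mean of 1.17 TPM in sublingual gland and SLCO5A1 of 1.01 TPM in liver. SLCO2A1 had 6.23 and 3.02 TPM in the livers of animals 5 and 3 and at most 1.22 TPM in the other 4.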
